A study of Homo sapiens with 6 samples.

Results

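The 10 genes described here are read as signs of epithelial-mesenchymal transition (EMT): the transcription factor genes SNAI1, SNAI2, ZEB1 and TWIST1, the cytoskeletal and adhesion genes VIM and CDH2, the secreted matrix protein genes FN1, TGFBI and SPARC, and the receptor kinase gene AXL. They were chosen by name, with earlier results of these data known. All 10 were found by Ensembl ID among the 60483 genes that each count table lists. The cells were DLD-1, an established line from a human colorectal adenocarcinoma, and RNA-seq was run on 3 libraries transfected with control siRNA and 3 transfected with siRNA against AHR. AHR encodes the aryl hydrocarbon receptor, a transcription factor that binds DNA with its partner ARNT once a ligand has bound. All were grown in the same serum-supplemented medium, and the labels name no difference between the groups other than the siRNA. Neither the siRNA sequence nor the time from transfection to harvest is stated, and no untransfected cells were analysed here. Separate cultures are not named for the 3 libraries of a group, so the spread behind each p-value may be technical.

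In EMT, epithelial cells loosen their junctions and take on a motile, matrix-producing state. Factors of the SNAI, ZEB and TWIST families drive it by binding short DNA words called E-boxes, and SNAI and ZEB proteins silence epithelial genes such as CDH1, which encodes E-cadherin. CDH2, VIM and FN1 are the products most often used to show that the switch has taken place, and TGF-beta is its best known inducer. In tumours, stromal fibroblasts also make many of these products.

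Depth ran from 11567736 to 15037145 counts per library, and the AHR siRNA libraries were the 3 shallowest. Levels are given as CPM, counts relative to the library total after TMM scaling, and 3 counts in a single library correspond to 0.207 to 0.248 CPM. The AHR transcript stood at 117, 144 and 132 CPM in the control siRNA libraries and at 95.8, 87.4 and 95 CPM in the AHR siRNA libraries, or 70.9% of control (log2 fold change -0.50, edgeR: SE 0.08, adjusted p = 1.98e-05). Control siRNA replicate 1 stood apart from its group: its counts differed from those of replicates 2 and 3 with a chi-square of 8.54 and 7.37 per gene, against 1.54 between replicates 2 and 3. Among AHR siRNA libraries the chi-square per gene was 3.48 (replicates 1 and 2), 5.43 (1 and 3) and 3.3 (2 and 3). The line expressed its epithelial markers. The 9 colorectal epithelial markers summed to 11800 to 13300 CPM in control siRNA and 8120 to 8440 CPM in AHR siRNA libraries, although CDX1 had at most 10 counts in any library. Of 10 fibroblast markers, DCN, LUM, PDGFRA and THY1 had no count in any library, and the list summed to 2.31 to 3.38 CPM in control siRNA and 2.13 to 3.31 CPM in AHR siRNA libraries. Leukocyte markers summed to 2.92 to 3.87 and 1.99 to 2.50 CPM, and endothelial markers (4 genes, KDR at 0) to 1.31 to 1.95 and 2.13 to 2.40 CPM. The part of these markers in the results was not tested.

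The mesenchymal and EMT genes did not move as a group. TGFBI and SPARC fell, each to about the same share of control, CDH2 rose from a level close to the floor, and no change was called in SNAI1, FN1, ZEB1 or AXL. VIM, SNAI2 and TWIST1 had too few counts to be tested. A gene was called at an adjusted p under 0.05 in edgeR's quasi-likelihood test, over the 14900 genes that passed the filter on low counts. Of the 7 members tested, 1 was called higher and 2 lower, a share that has to be read against the rest of the transcriptome, where 60.1% of tested genes were called, 30.0% higher and 30.1% lower. Among the 2328 tested genes with a mean under 2 CPM, where CDH2, SPARC, ZEB1 and AXL lie, 32.6% were called. The 3 called members, of 7 tested, had group ranges in CPM with no overlap, against 63.7% of all tested genes. In bulk RNA, fewer cells that express a gene and less of its RNA per cell cannot be told apart.

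**Figure D1:**
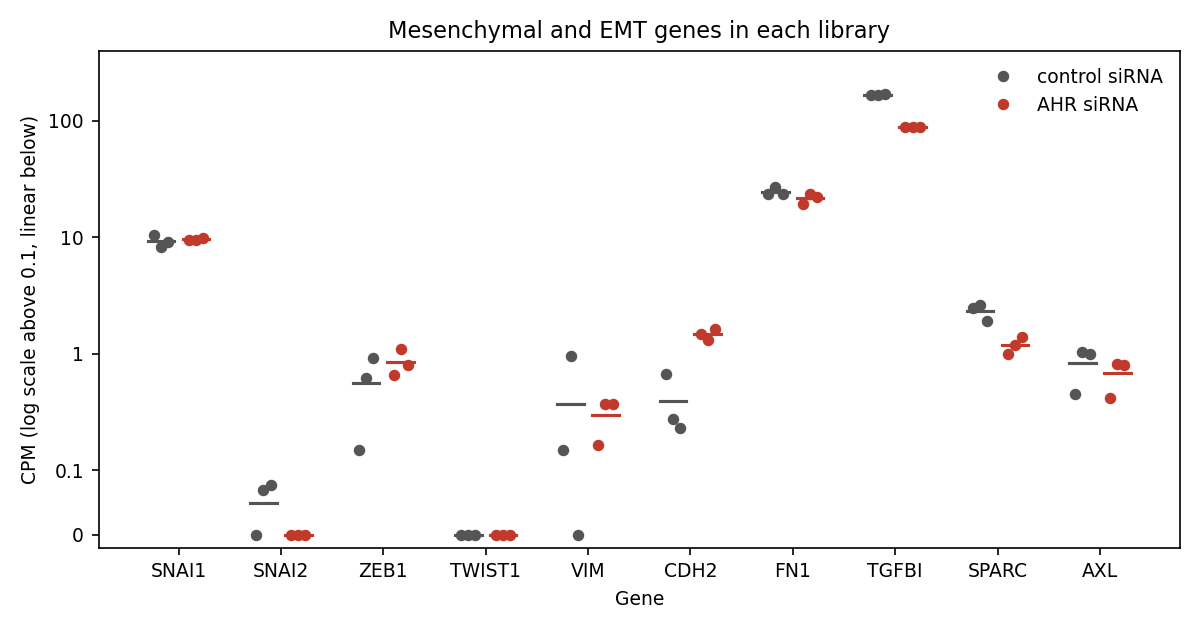
Levels of the 10 genes in each library, in CPM on an axis that is logarithmic above 0.1 CPM and linear below. Points are libraries (grey for control siRNA, red for AHR siRNA, 3 each) and lines are group means. The groups separate for TGFBI, SPARC and CDH2, and TWIST1 lies at 0 throughout.

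Among the transcription factors, SNAI1 was the one with a clear level, and it was nearly the same in both groups. SNAI1 encodes Snail, a zinc finger repressor of CDH1, and lies on chromosome 20 (49982999 to 49988886, plus strand, GRCh38 as annotated by GENCODE 29). It had 139, 120 and 119 counts in control siRNA and 115, 130 and 134 counts in AHR siRNA libraries, or 10.4, 8.28 and 9.15 CPM against 9.53, 9.56 and 9.84 CPM. The AHR siRNA values lay inside the range of the control values, and the means were 9.29 ± 1.08 and 9.64 ± 0.173 CPM (SD, n = 3 per group). The log2 fold change was 0.06 (edgeR: SE 0.13, adjusted p = 0.725), and its 95% interval ran from 86.2% to 126% of control. The sign of so small a difference turned negative without control siRNA replicate 2, at -0.03.

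ZEB1 encodes a zinc finger repressor that shares its targets with Snail, and it was close to the floor. The gene lies on chromosome 10 (31318495 to 31529814, plus strand) and had 2, 9 and 12 counts in control siRNA and 8, 15 and 11 counts in AHR siRNA libraries. These correspond to 0.150, 0.621 and 0.923 CPM against 0.663, 1.10 and 0.808 CPM, and the groups overlapped. The log2 fold change of 0.61 (edgeR: SE 0.47, adjusted p = 0.273) had an interval from 77.3% to 301% of control. At this depth neither a rise to 301% nor a fall to 77.3% could be told from no change. Without control siRNA replicate 1, its lowest library, the log2 fold change was 0.16 (adjusted p = 0.776), and without control siRNA replicate 3 it was 1.10 (adjusted p = 0.101). The antisense gene ZEB1-AS1 had more reads than ZEB1 and rose from 2 ± 0.241 to 3.27 ± 0.389 CPM (SD, n = 3 per group), which is a log2 fold change of 0.70 (edgeR: SE 0.22, adjusted p = 0.0114). The counting is not stated to use strand, so reads where the genes overlap cannot be assigned to either with certainty.

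SNAI2, which encodes the related repressor Slug, and TWIST1, which encodes a basic helix-loop-helix factor, gave practically no reads. SNAI2 (chromosome 8, 48917604 to 48921740, minus strand) had 0, 1 and 1 counts in control siRNA and 0 in each AHR siRNA library. Taken as 3 counts over the group, a count of 0 allows up to 0.0764 CPM in AHR siRNA cells, and the upper bound of the 95% exact Poisson interval is 0.0939 CPM. An exact two-sided permutation test of the SNAI2 levels gave p = 0.4, where 0.1 is the smallest that 3 against 3 libraries can give. TWIST1 (chromosome 7, 19020991 to 19117672, minus strand) had no count in any library, which by the same limit of 3 counts allows up to 0.0735 CPM in the control siRNA and 0.0764 CPM in the AHR siRNA group (exact Poisson bounds 0.0904 and 0.0939 CPM). Both are at or under 3 counts per group, and no fold change was drawn from them.

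VIM, the intermediate filament gene of mesenchymal cells, was likewise near the floor, and CDH2 rose. VIM (chromosome 10, 17228259 to 17237593, plus strand) had 2, 14 and 0 counts in control siRNA and 2, 5 and 5 counts in AHR siRNA libraries. Control siRNA replicate 2 held 14 of the 16 control counts, and the groups overlapped. Summed over each group, 16 and 12 counts gave 0.392 CPM (95% exact Poisson interval 0.224 to 0.637, counting error only) and 0.305 CPM (0.158 to 0.534), and the exact two-sided permutation test over the 6 libraries gave p = 1. VIM-AS1 had no count in any library.

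CDH2 encodes N-cadherin, the adhesion protein that replaces E-cadherin in a classical cadherin switch. It lies on chromosome 18 (27950966 to 28177446, minus strand) and had 9, 4 and 3 counts in control siRNA and 18, 18 and 22 counts in AHR siRNA libraries. On the CPM scale these are 0.675, 0.276 and 0.231 against 1.49, 1.32 and 1.62, with all 3 AHR siRNA libraries above all 3 controls. The means were 0.394 ± 0.245 and 1.48 ± 0.146 CPM (SD, n = 3 per group), which is a log2 fold change of 1.89 (edgeR: SE 0.40, adjusted p = 0.000506) with an interval from 206% to 665% of control. CDH2 passed the filter through the AHR siRNA group alone, where all 3 libraries reached 0.754 CPM and no control library did, so it could be tested because it was high there. With no filter the log2 fold change was 1.88 (edgeR adjusted p = 4.48e-05 over 30458 genes), and without control siRNA replicate 1, the highest control, it was 2.48. Even after the rise CDH2 remained a minor cadherin: per kilobase of exon, CDH1 exceeded it 1780-fold in control siRNA and 340-fold in AHR siRNA cells.

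Of the matrix protein genes, TGFBI had the highest level and the tightest change. TGFBI encodes a secreted protein that binds collagens and integrins and is induced by TGF-beta, and it lies on chromosome 5 (136028895 to 136063818, plus strand). It had 2231, 2412 and 2218 counts in control siRNA and 1066, 1199 and 1207 counts in AHR siRNA libraries. The levels were 167, 166 and 171 CPM against 88.3, 88.2 and 88.6 CPM, far apart and hardly spread within a group. The mean fell from 168 ± 2.17 to 88.4 ± 0.239 CPM (SD, n = 3 per group), or 52.6% of control, with a log2 fold change of -0.93 (edgeR: SE 0.06, adjusted p = 3.83e-10) and an interval from 47.9% to 57.6%. Leaving out any single library kept the log2 fold change between -0.94 and -0.93, and with library totals as the only scaling it was -0.78.

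SPARC encodes a calcium-binding matrix glycoprotein that stromal cells secrete in large amounts, and in these cells its level was low. It also lies on chromosome 5 (151661096 to 151687165, minus strand) and had 33, 38 and 25 counts in control siRNA and 12, 16 and 19 counts in AHR siRNA libraries. The levels of 2.48, 2.62 and 1.92 CPM all lay above those of 0.994, 1.18 and 1.40 CPM. The mean fell to 50.8% of control, which is a log2 fold change of -0.97 (edgeR: SE 0.28, adjusted p = 0.0053), with a wide interval from 34.2% to 76.3%. Every library of both groups passed the minimum of the filter, unlike for CDH2, and without control siRNA replicate 1 the log2 fold change was -0.94 (adjusted p = 0.0112). The fall in SPARC was thus close in size to that in TGFBI, but known less well because it rests on 96 and 47 counts in all, against 6861 and 3472.

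FN1 encodes fibronectin, the matrix protein that cells lay down as fibrils and grip through integrins, and it was expressed in every library without a called change. It lies on chromosome 2 (215360440 to 215436172, minus strand) and had 313, 393 and 307 counts in control siRNA and 235, 320 and 303 counts in AHR siRNA libraries. The levels of 23.5, 27.1 and 23.6 CPM overlapped with those of 19.5, 23.5 and 22.3 CPM. The log2 fold change was -0.18 (edgeR: SE 0.10, adjusted p = 0.114), with an interval from 76.2% to 102% of control. Without control siRNA replicate 1, the library that stood apart, FN1 was called lower at -0.23 (adjusted p = 0.0452), and with library totals as the only scaling the value was -0.04 (adjusted p = 0.766).

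AXL encodes a receptor tyrosine kinase that is often raised in mesenchymal and drug-resistant tumour cells. It lies on chromosome 19 (41219203 to 41261766, plus strand) and had 6, 15 and 13 counts in control siRNA and 5, 11 and 11 counts in AHR siRNA libraries. The levels of 0.450, 1.04 and 1 CPM overlapped with 0.414, 0.809 and 0.808 CPM. In both groups replicate 1 was the lowest. The log2 fold change of -0.28 (edgeR: SE 0.42, adjusted p = 0.589) had an interval from 45.1% to 151% of control.

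**Figure D2:**
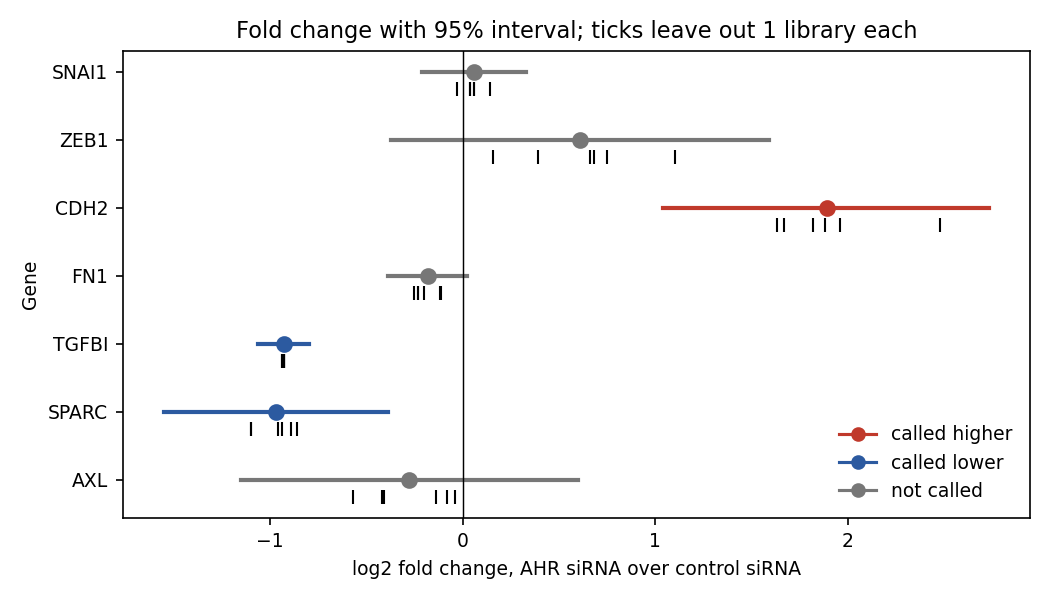
The log2 fold change of the 7 tested genes, AHR siRNA over control siRNA, with its 95% interval (line), and the values with 1 library left out (black ticks). TGFBI, SPARC and CDH2 keep their side of 0 in all ticks, those of TGFBI lie on top of each other, and 1 tick of SNAI1 crosses 0.

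The sequence before and after the start site was read for the 3 called genes, since an AHR-ARNT dimer binds the word GCGTG, the core of the xenobiotic response element, and Snail and ZEB1 bind the E-box CAGGTG. The RefSeq promoters (GRCh38.p14, 250 bases before to 50 bases after the start site, written 5′ to 3′ on the strand of the gene) are shown with every match to either word, on either strand, in capitals:
CDH2: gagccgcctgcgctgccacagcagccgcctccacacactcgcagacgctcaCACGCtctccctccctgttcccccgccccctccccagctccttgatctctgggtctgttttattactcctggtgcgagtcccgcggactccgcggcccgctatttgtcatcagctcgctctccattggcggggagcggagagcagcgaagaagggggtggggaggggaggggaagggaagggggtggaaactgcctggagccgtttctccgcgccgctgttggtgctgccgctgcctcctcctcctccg
TGFBI: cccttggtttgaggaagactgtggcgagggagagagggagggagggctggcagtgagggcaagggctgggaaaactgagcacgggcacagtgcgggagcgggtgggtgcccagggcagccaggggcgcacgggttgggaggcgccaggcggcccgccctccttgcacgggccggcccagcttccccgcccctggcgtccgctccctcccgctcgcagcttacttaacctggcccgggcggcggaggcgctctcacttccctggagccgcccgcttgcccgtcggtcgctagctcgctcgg
SPARC: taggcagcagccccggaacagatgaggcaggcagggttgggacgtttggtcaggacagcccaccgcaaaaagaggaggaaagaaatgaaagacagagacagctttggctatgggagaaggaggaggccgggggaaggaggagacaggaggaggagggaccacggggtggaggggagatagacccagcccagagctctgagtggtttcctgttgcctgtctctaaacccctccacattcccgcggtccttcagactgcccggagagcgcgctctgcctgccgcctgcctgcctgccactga
The CDH2 stretch (chr18:28177081-28177380, minus strand) held 1 match, CACGC, the core read on the other strand, 199 bases before the start site. The stretches of TGFBI (chr5:136028738-136029037, plus strand) and SPARC (chr5:151686866-151687165, minus strand) held neither word, so they carry no capitals. GCGTG occurred on either strand in 36.5% of all 35116 promoters and CAGGTG in 20.6%, and a match says nothing about binding. Promoters were found for 7 of the 10 genes. VIM and FN1 held neither word, a second CDH2 start held neither, AXL held CAGGTG once at 1 of its starts and GCGTG 4 times at another, and the 7 starts of ZEB1 held 4 matches each to GCGTG and CAGGTG.

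Set per kilobase of exon, so that genes of different length can be compared, the order in control siRNA was TGFBI, SNAI1, FN1, SPARC, AXL, CDH2, VIM, ZEB1, SNAI2 and TWIST1. The levels were 21.5, 5.51, 1.43 and 0.484 CPM per kilobase for the first 4 genes, and each of these was above the next gene in every library. From AXL (0.161) to SNAI2 (0.0143) the ranges over libraries of neighbouring genes overlapped, so neighbours there have no clear order, although AXL and CDH2 lay above SNAI2 in every library. In AHR siRNA the first 3 kept their places at 11.3, 5.72 and 1.26 CPM per kilobase, and CDH2 (0.298) stood beside SPARC (0.246) with overlapping ranges. The lengths are unions of all annotated exons, which for FN1, at 17315 bases, is longer than a usual transcript and lowers its value.

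Of 16 epithelial genes, 8 fell in AHR siRNA cells, a count to be read against the 30.1% called lower over all tested genes. CDH1 stood at 142 CPM per kilobase and KRT18, a keratin of simple epithelia, at 879 CPM per kilobase in control siRNA, against 0.0796 for CDH2 and 0.0721 for VIM. All 16 were tested, 1 was called higher and 7 were not called, with a median log2 fold change of -0.22 against 0.01 over all tested genes. KRT8 fell from 6360 ± 485 to 3900 ± 90.5 CPM (SD, n = 3 per group), or 61.4% of control, KRT18 fell to 62.1% and CDH1 to 71.5%, with log2 fold changes of -0.70, -0.69 and -0.48 (edgeR adjusted p = 2.47e-07, 3.92e-07 and 9.46e-06). KRT8 and KRT18 overlap at their ends, and both have many processed copies, so their values are uncertain. The splicing regulator gene ESRP2 fell to 79.9%, and OVOL1 and OVOL2, which encode zinc finger factors that keep cells epithelial, to 54.6% and 66.0%. GRHL2, which encodes another such factor, was the 1 epithelial gene called higher, at 119% of control. OVOL1, OVOL2, ESRP2 and GRHL2 are named after their values were seen, and the calls of EPCAM and CLDN7 were lost when library totals were the only scaling, that of EPCAM also with upper-quartile scaling.

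**Figure D3:**
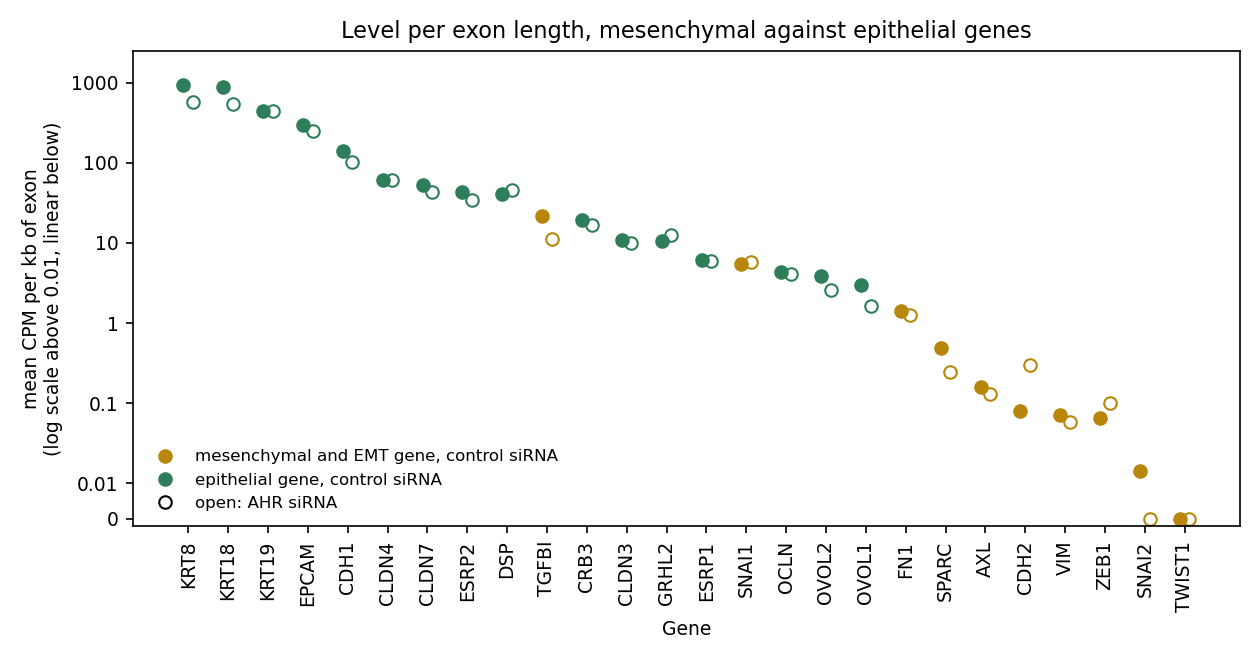
Mean level in CPM per kilobase of exon for the 10 mesenchymal and EMT genes (gold) and the 16 epithelial genes (green), on an axis that is logarithmic above 0.01 and linear below, ordered by the control siRNA level. Filled points are control siRNA and open points AHR siRNA, 3 libraries each. TGFBI and SNAI1 lie among the epithelial genes and the other 8 below all of them.

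Further EMT transcription factors moved in both directions and mostly at low levels. Of 11 listed genes, ZEB2, TWIST2 and GSC had no count in any library, 6 were tested, 4 were called higher and 1 lower, against 60.1% called in all. HMGA2, which encodes an architectural chromatin protein that induces SNAI1 and TWIST1 in other systems, fell from 123 ± 2.27 to 53.6 ± 4.67 CPM (SD, n = 3 per group), which is a log2 fold change of -1.19 (edgeR: SE 0.07, adjusted p = 1.02e-10). TCF3 rose to 114% of control (log2 fold change 0.19, SE 0.07, edgeR adjusted p = 0.0345) but lost this call in 6 of 14 alternatives. KLF8 and SNAI3, named after their values were seen, rose from few reads, KLF8 from 1, 4 and 1 to 9, 16 and 15 counts, and SNAI3 from 11, 24 and 15 to 34, 42 and 39. KLF8, like CDH2, had no control library at the minimum of the filter and was tested through the AHR siRNA group.

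In the TGF-beta pathway, of which TGFBI is a known target, ligand and receptor genes moved both ways, while the listed SMAD genes were all called lower. All 13 listed genes were tested, 6 were called higher, 6 lower and 1 was not called, against 60.1% called in all, with a median log2 fold change of -0.16. Among the ligands, TGFB1 fell from 59.9 ± 1.57 to 31.4 ± 3.72 CPM (SD, n = 3 per group), or 52.5% of control, which is a log2 fold change of -0.93 (edgeR: SE 0.09, adjusted p = 2.15e-08). TGFB2 rose from 19.7 ± 1.04 to 53.5 ± 1.01 CPM (log2 fold change 1.44, SE 0.08, edgeR adjusted p = 2.96e-11) and TGFB3 from 5.82 ± 0.969 to 23.2 ± 0.903 CPM (1.99, SE 0.12, adjusted p = 1.12e-10). The receptor genes split as well, with TGFBR1 at 68.8%, TGFBR2 at 134% and TGFBR3 at 175% of control. SMAD2, SMAD3 and SMAD7 fell to 69.5%, 77.9% and 75.3%. SMAD4 was called lower at 85.7% but lost the call in 5 of 14 alternatives. These receptor and SMAD genes are named after their values were seen. TGFBI (-0.93) and TGFB1 (-0.93) thus had the same log2 fold change, and no test linked them.

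**Figure D4:**
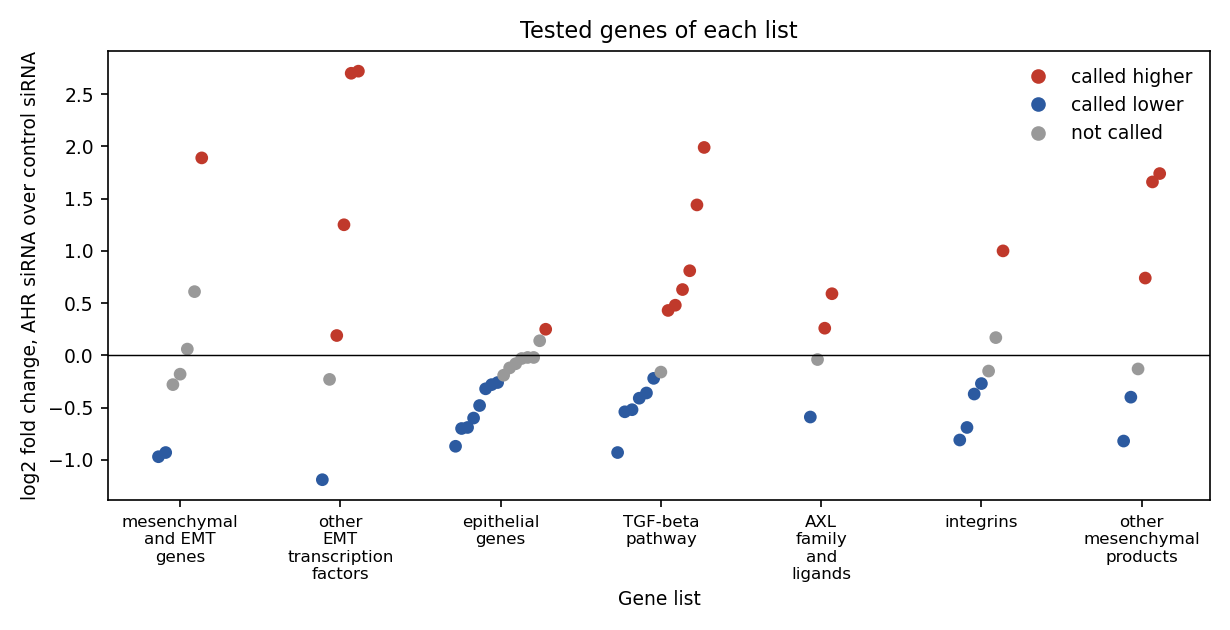
The log2 fold change of each tested gene (AHR siRNA over control siRNA, 3 libraries each), by gene list, with red for called higher, blue for called lower and grey for not called. Genes lie on both sides of 0 in every list, and the epithelial genes lie mostly below it.

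Some of the receptors and ligands around the members were called and others were not. AXL belongs to a family with TYRO3 and MERTK, whose ligands are encoded by GAS6 and PROS1. TYRO3 went from 50.7 ± 1.73 down to 33.6 ± 1.08 CPM (SD, n = 3 per group), 66.3% of its control level and a log2 fold change of -0.59 (edgeR: SE 0.08, adjusted p = 1.62e-06), and PROS1 rose to 151% (log2 fold change 0.59, SE 0.08, adjusted p = 3.23e-06). MERTK was called higher at 120% but lost the call in 7 of 14 alternatives, and GAS6 was not called at 96.9%. Per kilobase of exon, TYRO3 at 4.63 and MERTK at 2.81 CPM were above AXL at 0.161 in control siRNA. Of the 7 tested integrin genes, through which cells bind fibronectin and the TGFBI protein, 4 were called lower and 1 higher, where 60.1% of all tested genes were called. The lower calls of ITGAV and ITGB1, named after their values were seen, were lost with library totals alone (-0.22, adjusted p = 0.0514, and -0.12, adjusted p = 0.139). ITGA3 fell to 56.8% and ITGB5 to 61.9% of control (log2 fold changes -0.81 and -0.69), while ITGB6, whose product activates latent TGF-beta, rose to 199%, from 8.66 ± 0.956 to 17.3 ± 1.5 CPM (log2 fold change 1, SE 0.12, edgeR adjusted p = 8.99e-07).

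Other mesenchymal products were mostly too sparse to test. Of 17 listed genes 6 passed the filter on low counts, 3 of which were called higher and 2 lower. Over all tested genes 30.0% were called higher and 30.1% lower, and 32.6% were called among those with a mean under 2 CPM. The whole list summed to 21.4 to 25.5 CPM in control siRNA and 26.1 to 28.4 CPM in AHR siRNA libraries. TAGLN, an actin-binding protein gene of smooth muscle, rose from 3.88 ± 1.09 to 6.50 ± 0.508 CPM (SD, n = 3 per group), which is a log2 fold change of 0.74 (edgeR: SE 0.19, adjusted p = 0.00264). S100A4 fell to 76.1% of control (log2 fold change -0.40, SE 0.13, adjusted p = 0.0138), a call that was lost without AHR siRNA replicate 3 (-0.32, adjusted p = 0.0794) and with library totals alone (-0.25, adjusted p = 0.103). The other called genes, named after their values were seen, were COL5A2 with 15, 39 and 21 counts against 68, 75 and 85, PDGFRB with 10, 7 and 3 against 19, 25 and 21, and COL1A1 with 31, 30 and 24 against 19, 19 and 8. COL1A1 lost its call in 6 of 14 alternatives. PDGFRB and COL1A1 are also fibroblast markers. PDGFRB, like CDH2, had no control library at the minimum of the filter and was tested through the AHR siRNA group. Over the 6 related lists, 52 of 69 genes were tested, with 17 called higher and 22 lower, against 30.0% called higher and 30.1% lower over all tested genes.

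TGFBI, the called member with the smallest p, was compared with all 10878 other genes that had a symbol and a mean of at least 5 CPM. The most alike over the 6 libraries were DHX9 and USP10 (Pearson r of 0.9998 on log2 CPM for each) and NAB2 (0.9996). DHX9, an RNA helicase gene, went from 490 to 505 CPM in control siRNA to 304 to 307 CPM in AHR siRNA libraries. The 6 libraries fall into 2 groups, and 2147 genes had an r over 0.95 with TGFBI.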

How the data were processed

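The authors deposited a file of counts for each of the 6 samples, with whole numbers per versioned Ensembl ID. The submitters' processing notes list the tools HTSeq and TopHat2 2.0.11 (also plain TopHat) and the builds hg19 and GRCh37, without their roles. No source used here states the strandedness or how multi-mapping reads were counted. Groups and replicate numbers came from the sample titles. IDs were matched to symbols without their version, and exon lengths and positions were taken from GENCODE 29 (GRCh38), since the annotation behind the counts is uncertain.

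Unmodified counts went into edgeR 4.0.16 (R 4.3.3): filterByExpr, TMM, glmQLFit with the group as its term, glmQLFTest, and Benjamini-Hochberg adjustment over 14900 genes. CPM are relative to the TMM-scaled total of tested genes. The SE is the log2 fold change over the square root of F, and 95% intervals use the test's t distribution. Alternatives used 3 other scalings, 2 other filters, DESeq2 1.42.0, limma 3.58.1 (voom), a replicate block, a threshold of 0.01 and each library left out. The scripts were tested on simulated data. The members and lists were chosen with earlier results of these data known. The genes named by rule are the members, AHR, antisense genes of members, and the 3 genes most correlated with the member of smallest p. From each list they include up to 3 called genes with the smallest p and a mean of at least 5 CPM. Further list and marker genes are named outside this rule, many of them after their values were seen. Averaged over genes, differences within both groups exceeded sampling noise for every pair of libraries. Floors and Poisson intervals cover counting error only. Single values of some genes on the lists are not reported here.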

Additional observations from a re-analysis of the deposited data

How the results depend on the processing

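The calls of TGFBI, SPARC and CDH2 kept their direction and stayed under an adjusted p of 0.05 in all 14 alternatives each, with adjusted p from 5.7e-38 to 1.75e-07 for TGFBI, 0.00278 to 0.0255 for SPARC and 3.25e-05 to 0.0048 for CDH2. They also passed the threshold of 0.01. With 1 library left out, SPARC ran from -1.10 to -0.86 and CDH2 from 1.63 to 2.48 on the log2 scale. FN1 became a call without control siRNA replicate 1 (-0.23), and with 1 library left out the log2 fold change of SNAI1 ran from -0.03 (without control siRNA replicate 2) to 0.14. With library totals alone it was 0.21. The other list genes gave 14 to 18 calls higher and 15 to 24 lower. With library totals alone the median log2 fold change of all tested genes shifted from 0.01 to 0.15, and 64.7% of all calls were higher against 50%, while TGFBI stood at -0.78, SPARC at -0.82 and CDH2 at 2.03. With 1 CPM required in 3 libraries, ZEB1 and AXL dropped out of the test.

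A fit with the replicate block gave -0.93 for TGFBI, -0.97 for SPARC and 1.90 for CDH2, with the same 3 members called and 9598 calls over all genes against 8953. Whether the replicate numbers pair the libraries was not settled. Deviations from the group means correlated at 0.406, -0.103 and 0.355 for numbers 1 to 3. Control siRNA replicate 2 correlated best with AHR siRNA replicate 3 (0.409). Deviations cancel out within a group, so these correlations depend on each other and cannot decide the question. Depth limits ZEB1, AXL, VIM, SNAI2 and TWIST1, which had at most 15 counts in any library.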
